A study of Mus musculus with 8 samples.

Results

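Immunoglobulin variable genes were described library by library in ascending aortas from Fbn1 mgR/mgR mice. They were taken as every row of the analysed expression table whose Ensembl identifier maps to a mouse symbol beginning with Ighv, Igkv or Iglv, which gave 41 of the 1329 genes of the table. Of these, 20 are heavy-chain (Ighv) genes, 20 are kappa light-chain (Igkv) genes and 1, Iglv3, is a lambda light-chain gene. The GENCODE M21 annotation holds 113, 100 and 3 variable genes of these kinds, and the variable genes outside the table were not analysed here.

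Fbn1 mgR/mgR mice are homozygous for a hypomorphic allele of the gene of fibrillin-1, which forms the microfibrils of elastic tissue, and are a model of Marfan syndrome. All 8 libraries have this genotype, and no library of another genotype was analysed here. In 4 libraries the mice had received DT-061, a small-molecule activator of protein phosphatase 2A, at 5 mg/kg in 2 daily doses, started at an age of 5 weeks and kept up for 4 weeks, and in 4 they had received the vehicle. The labels do not say that each library came from its own mouse, so the p-values measure the spread between these libraries, which may in part be technical. Smooth muscle genes, the defining genes of the vessel wall, were high throughout, with Acta2 at 3458 to 9006 FPKM (fragments scaled to the length of the gene and the depth of the library) over the 8 libraries. Library depth, recovered from the FPKM values and not stated by the authors, was 14100000 to 22200000 fragments. DT-061 libraries 1 to 4 and vehicle libraries 1 to 4 are named by their label numbers, which pair no libraries across the groups.

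A B lymphocyte builds its antibody heavy chain by joining a variable, a diversity and a joining segment, and its light chain by joining a variable and a joining segment, so each B cell clone transcribes mainly the variable gene of its own rearrangement on each chain. Plasma cells, the antibody-secreting end stage of this lineage, hold these transcripts at very high levels. In a bulk tissue library the mixture of variable genes is therefore a readout of which rearrangements the B cells and plasma cells of that piece of tissue carried. In bulk libraries, fewer cells of a type and less RNA per cell cannot be told apart.

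All 41 variable genes were far lower in the aortas of mice given DT-061, where most were represented by no fragment or by a single fragment per library. Their summed level was 2.11, 2.57, 1.20 and 8.89 FPKM in DT-061 libraries 1 to 4 and 609, 285, 630 and 45.2 FPKM in vehicle libraries 1 to 4. The mean was 3.69 ± 3.51 FPKM with DT-061 and 392 ± 280 FPKM with vehicle (SD, n = 4 per group), a ratio of 106. The groups did not overlap, but vehicle library 4 stood 13.9-fold below vehicle library 3 and only 5.08-fold above the highest DT-061 library. The ratio was 138 without vehicle library 4 and 200 without DT-061 library 4, the DT-061 library with the highest sum. With the ratio of the group medians in place of the means it was 191, and with every library scaled to a common median of the table's genes (the median rescaling) it was 57.8. Most genes of the table, which the authors selected on the same contrast, were lower with DT-061. Setting the medians equal thus takes out part of the difference between the groups.

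Every FPKM value of the 41 genes was a whole number of fragments once the library's depth and the gene's length were recovered from the steps between values. Depths and lengths were chosen to make the values whole, and the largest deviation left was 3.1e-08 fragments. Of the 41 lengths, 9 equalled the annotated exonic length. The fragment numbers hold as far as these recovered depths and lengths do. DT-061 libraries 1 to 4 held 10, 14, 6 and 46 fragments of variable genes, and vehicle libraries 1 to 4 held 3384, 2183, 3821 and 221. In vehicle library 4, 221 fragments are a precision of 193 to 252 (95% exact Poisson interval, counting error only), and the 6 fragments of DT-061 library 3 one of 2.20 to 13.1. The DT-061 libraries had 7, 10, 6 and 15 of the 41 genes above 0. Vehicle libraries 1 to 3 had all 41 above 0 and vehicle library 4 had 37. The mixture of variable genes could thus be described in the vehicle libraries, while in the DT-061 libraries it rests on a handful of fragments.

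**Figure D1:**
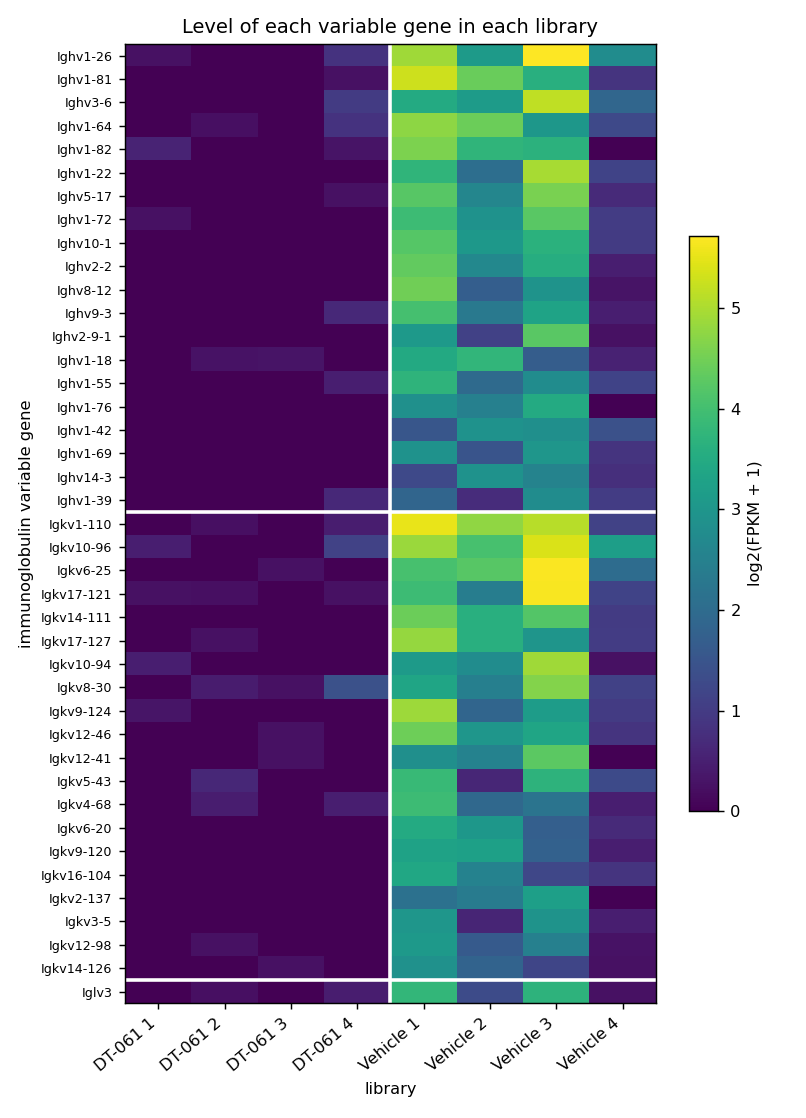
Heat map of log2(FPKM + 1) for the 41 immunoglobulin variable genes (rows, grouped as Ighv, Igkv and Iglv and ordered by mean level) in the 8 libraries (columns). Vehicle libraries 1 to 3 are above 0 in all 41 rows and vehicle library 4 in 37, and the DT-061 libraries have 7, 10, 6 and 15 genes above 0. Many values of vehicle library 4 lie in the range of the DT-061 values, which reach 1.68 FPKM (Igkv8-30 in DT-061 library 4). Examples are Ighv2-9-1 at 0.202 FPKM and Iglv3 at 0.193 FPKM. In vehicle library 2, Igkv5-43 is as low, at 0.519 FPKM.

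The last 300 coding bases of the V exon are shown for the gene with the highest mean level at each locus, since this exon identifies a variable gene in a read. The sequences are those of GENCODE M21 on GRCm38 (mm10), written 5′ to 3′ on the strand of the gene. Ighv1-26 lies on the minus strand at chr12:114788372-114788671, Igkv1-110 on the plus strand at chr6:68270968-68271267 and Iglv3 on the minus strand at chr16:19241207-19241506. Capitals mark the codon of the conserved cysteine near the 3′ end, after which the joining of segments begins to alter the sequence. It was found as the last TGT or TGC codon behind a tyrosine codon and a codon for tyrosine, phenylalanine or isoleucine.
Ighv1-26: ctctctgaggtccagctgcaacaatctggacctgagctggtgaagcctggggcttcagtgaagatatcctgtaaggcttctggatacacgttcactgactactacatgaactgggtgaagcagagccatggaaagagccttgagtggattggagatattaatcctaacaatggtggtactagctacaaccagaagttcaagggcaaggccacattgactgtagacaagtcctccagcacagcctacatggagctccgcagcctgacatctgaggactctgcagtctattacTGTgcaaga
Igkv1-110: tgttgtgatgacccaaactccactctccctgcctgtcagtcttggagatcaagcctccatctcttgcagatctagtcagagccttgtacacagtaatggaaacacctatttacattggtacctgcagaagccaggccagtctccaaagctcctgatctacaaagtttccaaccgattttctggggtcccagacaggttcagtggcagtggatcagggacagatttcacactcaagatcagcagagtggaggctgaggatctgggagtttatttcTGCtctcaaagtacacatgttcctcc
Iglv3: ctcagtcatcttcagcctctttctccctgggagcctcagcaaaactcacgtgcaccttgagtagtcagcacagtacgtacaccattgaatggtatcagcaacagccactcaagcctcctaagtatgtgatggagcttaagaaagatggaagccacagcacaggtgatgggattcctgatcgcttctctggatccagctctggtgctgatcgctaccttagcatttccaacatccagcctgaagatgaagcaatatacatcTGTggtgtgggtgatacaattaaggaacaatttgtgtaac
In Ighv1-26 and Igkv1-110 the codon begins 9 and 26 bases before the end of the exon's coding part, and in Iglv3 40 bases before it.

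The 20 heavy-chain genes summed to 0.870, 0.391, 0.225 and 4.71 FPKM in DT-061 libraries 1 to 4 and to 292, 140, 287 and 21.7 FPKM in vehicle libraries 1 to 4, a ratio of 120. The groups did not overlap, and DT-061 library 4 stood apart from its group. Without that library the ratio was 374, with the group medians it was 338, and with the median rescaling it was 67.2. Of the 20 genes, 12 belong to the Ighv1 family, the largest heavy-chain family of the mouse, with 53 annotated genes. The Ighv1 members held 62.1%, 71.7%, 58.5% and 71.3% of the heavy-chain sum in vehicle libraries 1 to 4.

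Ighv1-26 had the highest mean level of the heavy-chain genes. It stood at 28.9, 7.70, 51.7 and 5.85 FPKM in vehicle libraries 1 to 4 and at 0.198, 0, 0 and 0.774 FPKM in DT-061 libraries 1 to 4. Vehicle library 4, low for nearly every other variable gene, was close to vehicle library 2 here, and the groups did not overlap. Ighv1-26 fell by 3.86 ± 0.64 in log2(FPKM + 1) units (SE, 4 libraries per group; limma adjusted p = 0.013), and its mean FPKM was 96.8-fold lower with DT-061, 356-fold without DT-061 library 4 and 58.2-fold without vehicle library 3.

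Ighv1-81 was the leading heavy-chain gene of vehicle library 1. It had 37.8, 20.3, 11.3 and 0.807 FPKM in vehicle libraries 1 to 4, and its single DT-061 fragment lay in library 4, at 0.194 FPKM. The ratio of fragments scaled to depth was 377 with a counting interval of 67.4 to 14943. Ighv3-6 had 10.3, 7.77, 35.3 and 2.69 FPKM with vehicle and was above 0 in DT-061 library 4 alone, at 0.993 FPKM from 5 fragments. Its high library was vehicle library 3, where it ranked 2nd of the 20 genes, while it ranked 13th in vehicle library 1.

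Ighv1-64 led vehicle library 2. Its vehicle values were 25.7, 20.8, 7.17 and 1.41 FPKM, and its DT-061 values were 0, 0.182, 0 and 0.774 FPKM. Ighv1-82 had 23.1, 12.4, 11.7 and 0 FPKM with vehicle and 0.474, 0, 0 and 0.231 FPKM with DT-061. It was 1 of only 2 heavy-chain genes with no fragment in vehicle library 4, the other being Ighv1-76, so for both the groups overlapped.

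The remaining heavy-chain genes had vehicle means of 2.54 to 11.8 FPKM. Ighv1-39, the member of the 41 with the smallest change on the log2 scale, had 2.64, 0.642, 5.87 and 1.01 FPKM with vehicle and 0.581 FPKM in DT-061 library 4, with 0 in DT-061 libraries 1 to 3. Its change was -1.43 ± 0.44 (limma adjusted p = 0.021). Ighv1-18 had 1 fragment in each of DT-061 libraries 2 and 3. It was the only heavy-chain gene detected in DT-061 library 3, and in DT-061 library 2 Ighv1-64 also had 1 fragment, which gives a lower FPKM because the length counted for it is greater.

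The 20 kappa genes summed to 1.24, 2.002, 0.980 and 3.81 FPKM in DT-061 libraries 1 to 4 and to 304, 144, 330 and 23.3 FPKM in vehicle libraries 1 to 4, a ratio of 99.8, which was 52.9 with the median rescaling. The groups did not overlap. These genes come from 13 families, and no family held more than 35.9% of the kappa sum in a vehicle library.

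Igkv1-110 led the kappa genes by mean level. Vehicle libraries 1 to 4 held 45.1, 26.2, 33.3 and 1.18 FPKM and DT-061 libraries 1 to 4 held 0, 0.178, 0 and 0.378 FPKM. Vehicle library 4 was still above every DT-061 library. Over the groups these are 686 fragments against 3, and the ratio of fragments scaled to depth was 194 with a counting interval of 66.0 to 941.

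Igkv10-96 showed the largest change of the 41 genes on the log2 scale. It had 28.0, 15.6, 41.2 and 8.16 FPKM with vehicle and 0.401, 0, 0 and 1.17 FPKM with DT-061. It was the variable gene with the highest level in vehicle library 4, at 40 of that library's 221 fragments. Igkv10-96 fell by 3.97 ± 0.49 in log2(FPKM + 1) units (SE, 4 libraries per group; limma adjusted p = 0.012), and its mean FPKM was 59.0-fold lower, or 174-fold without DT-061 library 4.

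Igkv6-25 had 15.7, 17.8, 50.6 and 3.06 FPKM with vehicle and a single DT-061 fragment, in library 3, at 0.199 FPKM. Its ratio of fragments scaled to depth was 463, with a counting interval of 82.7 to 18319. Igkv17-121 had 14.1, 4.38, 49.5 and 1.21 FPKM with vehicle and 0.199, 0.183, 0 and 0.194 FPKM with DT-061, 1 fragment in each of 3 libraries. In both genes vehicle library 3 was the highest by a wide margin.

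Igkv14-111 had 20.7, 11.1, 17.3 and 1.003 FPKM with vehicle and no fragment in any DT-061 library. Igkv8-30 had the most DT-061 fragments of the 41 genes, 12 in all. It had 0, 0.351, 0.189 and 1.68 FPKM with DT-061 and 9.31, 4.57, 24.3 and 1.16 FPKM with vehicle. DT-061 library 4 was thus above vehicle library 4, and the mean FPKM was 17.8-fold lower with DT-061. Without DT-061 library 4 it was 54.7-fold lower, and without vehicle library 3 it was 9.06-fold lower. In DT-061 library 4, Igkv8-30 held 9 of the 20 kappa fragments (45%, 95% exact binomial interval 23.1% to 68.5%). Igkv5-43 led DT-061 library 2 with 3 fragments. In DT-061 library 1, Igkv10-94 and Igkv10-96 tied with 2 fragments each, and in DT-061 library 3 the 5 kappa genes detected had 1 fragment each.

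Iglv3, the lambda gene, had 12.8, 1.48, 12.04 and 0.193 FPKM with vehicle and 0, 0.175, 0 and 0.371 FPKM with DT-061. Its vehicle libraries were 76, 12, 77 and 1 fragments. Vehicle library 4 was below DT-061 library 4, so the groups overlapped. The ratio of fragments scaled to depth over the groups was 46.8, with a counting interval of 15.8 to 229. Without DT-061 library 4 the ratio of the mean FPKM was 114 in place of 48.6, and with the median rescaling it was 26.8. The limma adjusted p of Iglv3 was 0.032, the largest of the 41.

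No fragment of 15 of the 41 genes was found in any DT-061 library. These were Ighv1-22, Ighv1-42, Ighv1-69, Ighv1-76, Ighv2-2, Ighv2-9-1, Ighv8-12, Ighv10-1, Ighv14-3, Igkv2-137, Igkv3-5, Igkv6-20, Igkv9-120, Igkv14-111 and Igkv16-104. A count of 0 allows 3 fragments over the 4 DT-061 libraries together, which for a gene of the length of Ighv1-22 is 0.144 FPKM. Against that limit their vehicle means were at least 23.8-fold (Ighv1-42) to at least 87.3-fold (Igkv14-111) higher. A further 20 genes had 1 to 3 DT-061 fragments, and 6 had more, namely Ighv1-26, Ighv1-64, Ighv3-6, Igkv4-68, Igkv8-30 and Igkv10-96. With the 15 genes at their limits, the median ratio of the mean FPKM over the 41 genes was 57.6. Of the 26 genes detected with DT-061, 16 were above 0 in 1 library, 8 in 2, 2 in 3 and none in all 4.

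By limma on log2(FPKM + 1) over the whole table, 41 of the 41 genes were called lower with DT-061, at adjusted p of 0.012 to 0.032. The table had been selected by the authors on the same contrast, in which 65.0% of its genes were called lower and 95.4% in either direction. Neither this count nor the adjusted p-values of single genes therefore add to the FPKM values above. The 4 DT-061 values lay below the 4 vehicle values in 32 of the 41 genes (78.0%), against 48.2% of all genes of the table. The 9 genes that overlapped were Ighv1-76, Ighv1-82, Ighv9-3, Igkv2-137, Igkv5-43, Igkv8-30, Igkv10-94, Igkv12-41 and Iglv3. Vehicle libraries 1 to 3 were above every DT-061 library in 40 of the 41, Igkv5-43 being the exception through vehicle library 2. Vehicle library 4 was the lowest of the vehicle libraries in 39. With 1 library left out at a time, 34 to 41 of the 41 genes kept an adjusted p under 0.05 by limma. The genes that lost it in at least 1 of these 8 fits were 9, namely Ighv1-82, Ighv2-9-1, Ighv8-12, Igkv3-5, Igkv4-68, Igkv5-43, Igkv12-41, Igkv14-126 and Iglv3, at adjusted p up to 0.078. The fewest, 34, were called without DT-061 library 3 or without vehicle library 3, and all 41 were called without vehicle library 4.

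The median log2 change of the 41 genes was -2.38 (range -3.97 to -1.43), against -0.58 over the table and -0.87 over its lower genes. All 41 were lower by over 1 log2 unit, as were 27.6% of the genes of the table. Among the 50 and the 100 genes with the largest absolute change, 32 and 39 were variable genes, and the first of all was Igha, the constant region gene of IgA. Over the genes of the table, the median shift in log2 change was 0.69 with the median rescaling and 0.56 with quantile normalization, both toward higher with DT-061. The members' median log2 change was then -2.03 and -1.88, lower in all 41 genes with both. It was -4.97 with a pseudocount of 0.1 and -4.99 with limma's voom on the recovered fragments. The size of the change on the log2 scale thus depends on the pseudocount.

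**Figure D2:**
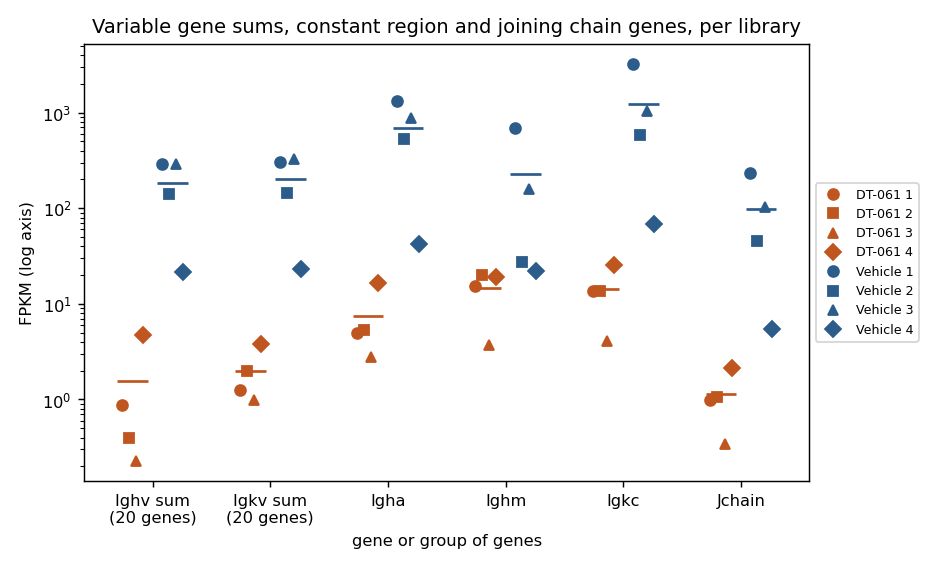
FPKM on a log axis of the summed Ighv and Igkv genes and of Igha, Ighm, Igkc and Jchain, with 1 point per library (marker shape gives the library number) and a line at the mean of each group of 4. In the Ighv and Igkv sums the vehicle points, down to 21.7 and 23.3 FPKM in library 4, lie above all DT-061 points, the highest of which are 4.71 and 3.81 FPKM.

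Heavy-chain and kappa variable genes stood in a narrow range of proportions in the vehicle libraries, over which their summed level varied 13.9-fold. The kappa sum was 1.04, 1.03, 1.15 and 1.07 times the heavy-chain sum in vehicle libraries 1 to 4 (1.07 ± 0.054, SD, n = 4). In the DT-061 libraries it was 1.43, 5.12, 4.35 and 0.809 times the heavy-chain sum, from 1 to 24 heavy-chain fragments per library. At that depth the proportion could not be set against that of the vehicle libraries.

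The constant region genes of the same antibodies were lower as well. Of the 14 listed constant region and joining chain genes, 4 were in the table, and all 4 fell, without overlap between the groups, in a table of which 65.0% of the genes fell and 48.2% were lower without overlap. Igha had 1325, 527, 888 and 42.7 FPKM with vehicle and 4.98, 5.38, 2.80 and 16.7 FPKM with DT-061, 93.2-fold lower on the means, or 159-fold without DT-061 library 4. Igkc, the kappa constant gene, had 3238, 580, 1038 and 68.0 FPKM with vehicle and 13.8, 13.7, 4.05 and 25.5 FPKM with DT-061, 86.5-fold lower, or 39.5-fold without vehicle library 1. Jchain, which links the monomers of secreted IgA and IgM, was 85.7-fold lower, or 45.3-fold without vehicle library 1. Ighm, the constant gene of IgM, was 15.5-fold lower, with 694, 27.6, 160 and 22.2 FPKM with vehicle against 15.4, 19.9, 3.68 and 19.3 FPKM. Only vehicle libraries 1 and 3 stood well clear of the DT-061 values for Ighm, and without vehicle library 1 the ratio was 4.79.

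The listed variable genes made up different portions of the constant region signal from library to library. On the FPKM scale, which is per length, the Ighv sum was 14.5%, 25.2%, 27.4% and 33.5% of the summed Igha and Ighm level in vehicle libraries 1 to 4, and 4.28%, 1.54%, 3.48% and 13.1% in the DT-061 libraries. The Igkv sum was 9.38%, 24.9%, 31.8% and 34.3% of Igkc in the vehicle libraries and 9.02%, 14.6%, 24.2% and 15.0% in the DT-061 libraries. Vehicle library 1, with the highest constant region levels, had the lowest percentages of its group on both chains. The constant genes of IgG and the variable genes outside the table were not analysed here, so these percentages describe the listed genes and do not measure how much of the antibody transcript they cover.

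Few other genes of the B cell lineage were in the table. In the list of B cell genes, 2 of 20 were in the table. Cd72, a B cell surface inhibitor, fell and was 5.30-fold lower on the means. Its groups overlapped, with 3.98 FPKM in vehicle library 4 and 4.87 FPKM in DT-061 library 4. Fcrl1, a B cell Fc receptor-like gene, did not pass (limma adjusted p = 0.089), with 3.60, 0.353, 0.729 and 0.0694 FPKM with vehicle against 0.0341, 0.0313, 0 and 0.200 FPKM. In the list of plasma cell genes, 6 of 17 were in the table and all 6 fell, again against 65.0% of the table. The 3 without overlap between the groups were Xbp1, Fkbp11 and Sdc1, where 48.2% of the table was lower without overlap. The plasma cell transcription factor gene Prdm1 was 8.59-fold lower, Derl3, a gene of protein degradation at the endoplasmic reticulum, was 6.32-fold lower and Slamf7 was 5.91-fold lower. Without vehicle library 1 the ratio was 5.41 for Prdm1 and 3.003 for Derl3. Xbp1, Fkbp11 and Sdc1, which cells other than plasma cells also express, were 1.62-fold, 1.66-fold and 1.41-fold lower. Bulk libraries do not show which cells the transcripts of any of these 6 genes, or of Cd72, came from. The count of these B cell, plasma cell, constant and joining chain genes that fell, 11 of 12, was 7 without DT-061 library 1, without DT-061 library 3 or without vehicle library 3, 6 with the median rescaling and 5 with quantile normalization. Calls over the whole table also dropped in these alternatives, as given below, so the loss is not particular to these genes. The authors had selected these genes on the same contrast, so a call kept or lost describes the fit and does not rank the genes. Igha and Cd72 kept their calls in all 16 alternatives. Ighm lost its call in 10 of them, with a limma adjusted p of 0.055 to 0.10 in the 6 that left out 1 library, and Igkc and Jchain lost theirs when limma's voom was run on the recovered fragments (adjusted p = 0.058 and 0.087). Derl3 and Prdm1 lost their calls in 8 alternatives each, with a limma adjusted p of 0.054 to 0.080 and 0.055 to 0.069 in the 6 that left out 1 library, and Slamf7 in 5. Xbp1, Fkbp11 and Sdc1 lost theirs with the median rescaling (limma adjusted p = 0.51, 0.69 and 0.20). Fkbp11 and Sdc1 also lost theirs with quantile normalization (limma adjusted p = 0.28 and 0.30). The log2 changes of Xbp1, Fkbp11 and Sdc1 were -0.67, -0.67 and -0.47. The median rescaling shifted the log2 change of the median gene by 0.69 toward higher with DT-061. It thus takes out changes of this size by construction.

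The markers of other immune cells that were in the table moved with the variable genes, and vehicle library 4 was low in them too. Of 16 T cell genes, 13 were in the table, of which 12 fell and Cd3e did not pass (limma adjusted p = 0.053). Vehicle and DT-061 values were fully separated for 4 of these 13, where 48.2% of the table was lower without overlap and 65.0% fell. Their summed level was 3.04 to 10.3 FPKM with DT-061 and 25.7 to 86.7 FPKM in vehicle libraries 1 to 3, and 8.61 FPKM in vehicle library 4. Of 11 listed macrophage genes, only Mpeg1 was in the table. Mpeg1 had 1.40 to 11.8 FPKM with DT-061 and 11.96 FPKM in vehicle library 4, against 41.2 to 52.8 FPKM in the other vehicle libraries. Smooth muscle genes went up with DT-061, 7 of the 9 listed being in the table and all 7 rising without overlap, where 30.4% of the table rose and 30.1% was higher without overlap. Their sum was 16095 to 24364 FPKM with DT-061 and 8764 to 13913 FPKM with vehicle, and the highest of the 8 libraries was DT-061 library 3, the library with the fewest variable gene fragments. None of the listed thymocyte, brown fat and red blood cell genes was in the table. Of the 6 epithelial and lung genes, Cdh1 was, at 0.508 FPKM or less in every library. The part of these cells in the fall of the variable genes was not tested.

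Within the vehicle group the libraries used the listed variable genes in different proportions. The authors had selected these genes on the same contrast, so genes used in few vehicle libraries may be missing from them. The shares, evenness and sharing below hold for the listed genes only, and that the vehicle libraries share them may follow from the selection. Vehicle library 1 was the most even. Its leading heavy-chain gene, Ighv1-81, held 12.9% of the Ighv sum, and its effective number of heavy-chain genes (the inverse of the summed squared shares, which is 20 if all 20 are equal) was 14.2. Vehicle library 2 was led by Ighv1-64 with 14.9% and had an effective number of 12.4, and vehicle library 3 by Ighv1-26 with 18.0% and 11.8. In vehicle library 4, Ighv1-26 held 27.0% and the effective number was 8.55. By fragments, the share of Ighv1-26 in vehicle library 4 was 29 of 106, with a 95% exact binomial interval of 19.1% to 36.9%, and in vehicle library 3 it was 317 of 1727, with an interval of 16.6% to 20.3%. These intervals overlap.

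The kappa locus was also most uneven in vehicle library 4. Igkv1-110 led vehicle libraries 1 and 2 with 14.8% and 18.2% of the Igkv sum, Igkv6-25 led vehicle library 3 with 15.3% and Igkv10-96 led vehicle library 4 with 35.0%. The effective numbers were 13.8, 11.4, 10.5 and 6.19. The leading share in vehicle library 4 was 40 of 114 fragments (interval 26.4% to 44.6%), above the intervals of the leading shares in the other vehicle libraries, the highest of which was 16.4% to 21.05%, in vehicle library 2. The same gene held 9.20%, 10.8% and 12.5% of the Igkv sum in vehicle libraries 1, 2 and 3, and ranked 3rd in each. For Igkv1-110 the order was opposite, since it fell to 5.08% and to the 5th rank in vehicle library 4.

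**Figure D3:**
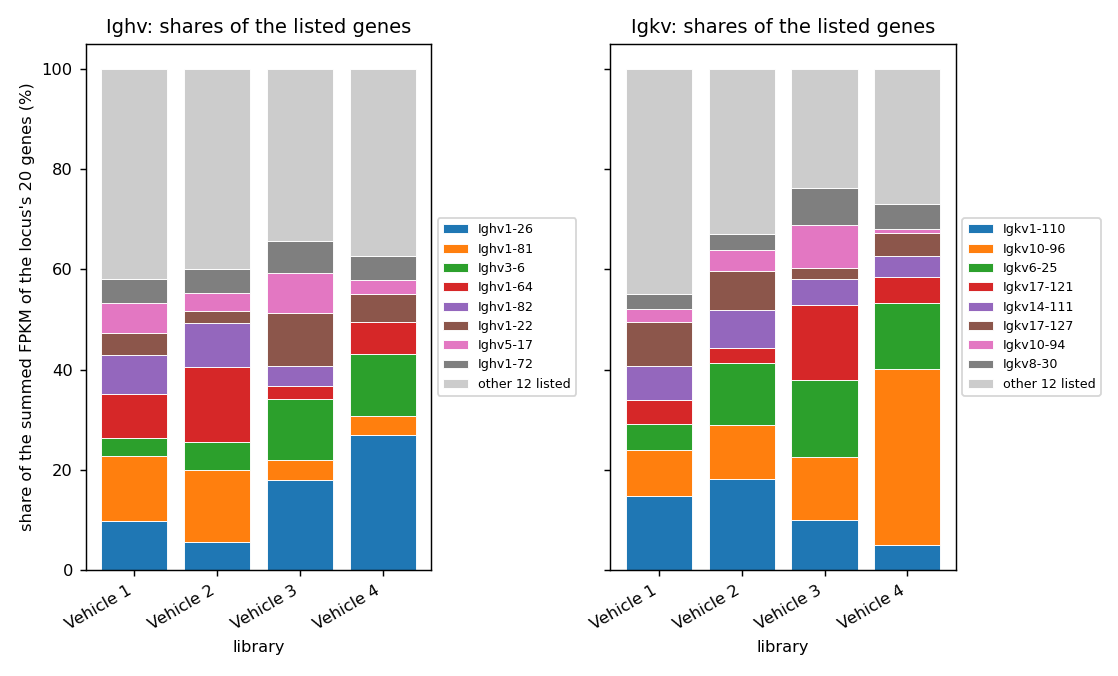
Stacked bars of the share of each locus's summed FPKM held by its 8 leading genes, and by its other 12 listed genes in light grey, in the 4 vehicle libraries. In vehicle library 4, Ighv1-26 takes 27.0% of the Ighv sum and Igkv10-96 takes 35.0% of the Igkv sum.

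Between any 2 vehicle libraries, the use shared (for each gene the smaller of its 2 shares, summed over the locus) was 55.2% to 74.3% for the heavy chain and 60.8% to 77.6% for kappa. By this measure the most alike were vehicle libraries 1 and 2, on both chains. By the rank order of the 20 kappa genes, vehicle libraries 1 and 4 were closer (Spearman's rho of 0.80 across genes, against 0.53 for libraries 1 and 2). The 5 leading heavy-chain genes of vehicle library 3 had 1 gene in common with those of vehicle library 1 and 1 with those of vehicle library 2. Several genes with similar means were used in different libraries. Ighv2-9-1 held 6.32% of the Ighv sum in vehicle library 3 and 0.830% in vehicle library 2. Ighv8-12 held 7.31% in vehicle library 1 and 1.04% to 2.34% in the others. Igkv9-124 held 9.43% of the Igkv sum in vehicle library 1, its 2nd rank, and 1.85% in vehicle library 2, its 16th. Igkv5-43 was nearly absent from vehicle library 2, at 0.360%, and held 6.13% in vehicle library 4. By level, 22 of the 41 genes were highest in vehicle library 1, 16 in vehicle library 3, 3 in vehicle library 2 and none in vehicle library 4. By share of the locus the counts were 12, 10, 10 and 9 for vehicle libraries 1 to 4. The count for vehicle library 1 includes Iglv3, which is alone in its locus and so has the same share in every library.

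In 2 pairs of genes of nearly the same sequence, the pair's order of use changed between vehicle libraries. Of the listed genes, Ighv1-26 and Ighv1-18 differ at 8 of 305 coding bases of the V exon, and Igkv17-121 and Igkv17-127, the closest kappa pair, at 6 of 298. Igkv17-121 lies at chr6:68037021-68037318 and Igkv17-127 at chr6:67861362-67861659, both on the plus strand of GRCm38. The kappa pair is printed from GENCODE M21, 5′ to 3′, to show how little sequence separates a pair whose order differs between libraries, and capitals mark the bases that differ.
Igkv17-121: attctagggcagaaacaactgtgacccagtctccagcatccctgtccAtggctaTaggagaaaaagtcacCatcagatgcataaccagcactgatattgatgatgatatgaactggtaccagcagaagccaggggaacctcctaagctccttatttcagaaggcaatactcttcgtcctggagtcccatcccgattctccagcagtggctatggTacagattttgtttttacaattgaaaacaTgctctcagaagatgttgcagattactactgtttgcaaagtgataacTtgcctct
Igkv17-127: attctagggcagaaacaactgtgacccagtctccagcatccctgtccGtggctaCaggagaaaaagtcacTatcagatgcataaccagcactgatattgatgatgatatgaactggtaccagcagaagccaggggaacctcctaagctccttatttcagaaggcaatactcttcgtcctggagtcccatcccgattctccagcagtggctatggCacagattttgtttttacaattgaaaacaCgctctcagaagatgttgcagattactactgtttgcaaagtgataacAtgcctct
In vehicle library 3, Igkv17-121 held 15.0% of the Igkv sum and Igkv17-127 held 2.08%, at 49.5 and 6.88 FPKM. In vehicle libraries 1 and 2 the order was reversed, with 14.1 against 27.0 FPKM and 4.38 against 11.2 FPKM. In vehicle library 4 both were low, at 1.21 and 1.04 FPKM. Ighv1-26 was higher than Ighv1-18 in vehicle libraries 1, 3 and 4, with 28.9 against 10.1, 51.7 against 2.24 and 5.85 against 0.463 FPKM, and lower in vehicle library 2, with 7.70 against 12.5 FPKM.

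**Figure D4:**
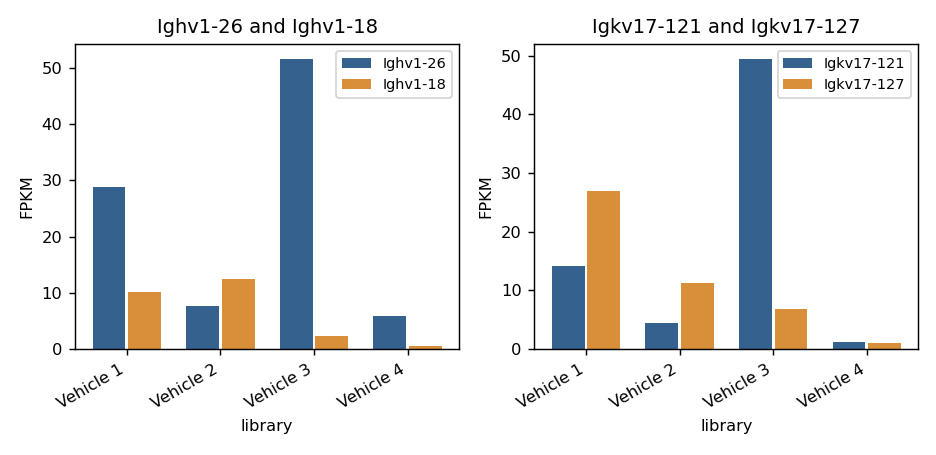
FPKM of 2 pairs of variable genes of nearly the same sequence in the 4 vehicle libraries, 1 bar per gene and library. Vehicle library 3 holds 51.7 FPKM of Ighv1-26 and 2.24 of Ighv1-18, and 49.5 FPKM of Igkv17-121 and 6.88 of Igkv17-127, while in vehicle library 2 the second gene of each pair is the higher.

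Likeness to other variable genes limits how surely a fragment is assigned. Compared with all 216 annotated variable genes over the coding part of the V exon, the nearest relative of a member was 56.7% to 99.0% identical, with a median of 96.0%, and 26 of the 41 had a relative of at least 95% identity. The germline sequence of 34 of the 41 shared no stretch of 150 bases, the length of 1 read, with the transcript of another annotated gene. In the other 7 some of these stretches were shared. The largest portions were 71.8% in Igkv2-137, whose V exon is also an exon of the annotated non-coding gene Gm42889, 38.4% in Igkv6-20 (shared with Igkv6-29), 35.1% in Ighv1-72 (with Ighv1-62-3) and 22.2% in Igkv5-43 (with Igkv5-45). The values of these genes are uncertain in so far as the counting divided such reads, and somatic mutation of rearranged genes can add to the mismatches.

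The 20 Ighv genes of the table span 2364 kb of chromosome 12, all on the minus strand, and the 20 Igkv genes span 3108 kb of chromosome 6, with 11 on the plus and 9 on the minus strand. The 10 heavy-chain genes nearest the constant region held 48.1%, 43.5%, 68.6% and 62.3% of the Ighv sum in vehicle libraries 1 to 4. The 10 kappa genes nearest theirs held 43.7%, 46.1%, 59.7% and 69.7% of the Igkv sum. Ighv1-26 and Igkv10-96, the genes with the highest mean share at their loci, are each the 10th from the constant region and so the last to be counted in. Without them the portions were 38.3%, 38.0%, 50.6% and 35.4% for the heavy chain and 34.5%, 35.3%, 47.2% and 34.7% for kappa (an alternative chosen after seeing the data). Vehicle library 3 was then the highest on both chains, and the higher portions of vehicle library 4 rested on these 2 genes.

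**Figure D5:**
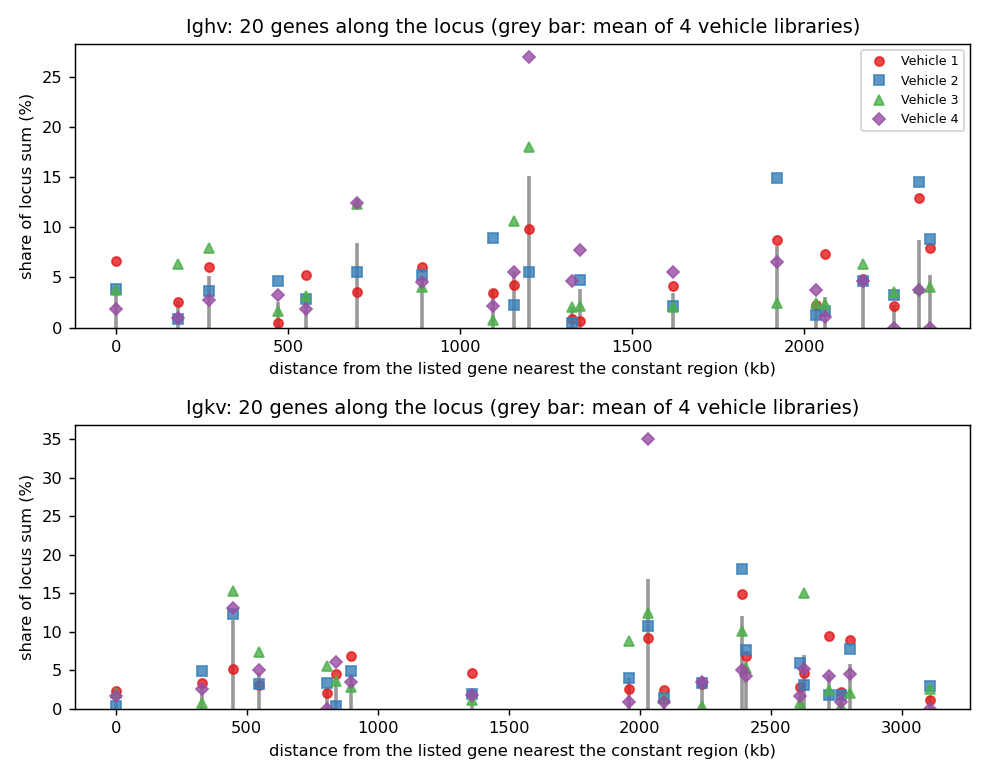
Share of the locus's summed FPKM held by each of 20 Ighv genes (top) and 20 Igkv genes (bottom), against the distance in kb from the listed gene nearest the constant region, with 1 point per vehicle library and a grey bar at the mean of the 4. The highest points are the 27.0% of Ighv1-26 and the 35.0% of Igkv10-96, both in vehicle library 4.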

How the data were processed

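Poly-A RNA was sequenced as paired reads of 150 bases, per the labels' protocols. The authors deposited FPKM values, and, per the submitters' processing notes, used featureCounts 1.5.0-p3, HISAT2 2.0.5, StringTie 1.3.3b and the mm10 build. The sources used here give neither the total of fragments behind the FPKM nor the strand setting. The deposited table holds genes its name calls significant between the groups. Variable genes were identified through the reference table of gene names.

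Depths and gene lengths were recovered from the steps between FPKM values: all 198 values of the variable genes above 0 were whole fragments within 0.03. Intervals and limits for 0 cover counting error only (95%). Changes are DT-061 minus vehicle on log2(FPKM + 1), by limma 3.58.1 in R 4.3.3 (trend and robust) over 1329 genes. The fit was tested on simulated normal values with the same spread for every gene. That test does not cover genes at 0 in most libraries of a group, such as most of the variable genes here. Benjamini-Hochberg adjustment was used, with a threshold of 0.05. Genes past it are said to have risen or fallen. Summed levels and shares got no test. Sequences from GENCODE M21 were aligned with edlib 1.3.9.post1.

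The variable genes and the 12 lists (constant and joining chain, B cell, plasma cell, B cell recruitment and survival, T cell, thymocyte, germinal centre, macrophage, smooth muscle, brown fat, red blood cell, epithelial and lung genes) were chosen with earlier results of these data known. Named with values were the 5 Ighv and 5 Igkv genes and the Iglv gene with the highest mean FPKM, the leading gene of each locus in each library, the genes with the largest and smallest change, and genes at 0 in a whole group. Any other gene named was picked with its values in view. The alternatives tried were a pseudocount of 0.1, a mean FPKM of at least 1, limma without trend and robust, median rescaling, quantile normalization, a replicate block, weighting by exonic length, and leaving out each library. Leaving out DT-061 library 3 with vehicle library 4, limma's voom on recovered fragments, the ratios of mean FPKM with each library left out, and the locus portions without the 10th gene were added after seeing the data.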

Additional observations from a re-analysis of the deposited data

Results flagged for a closer look

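Within groups of 4 libraries, a value was singled out where its gap to the nearest other value took up most of the group's range (above Dixon's 95% critical value). Over 114 such groups 20 values met this, where chance gives about 1 in 20. A gene with a single library above 0 always meets it. The 15 genes at 0 in every DT-061 library, counted among the 114 groups, cannot meet it in that group. DT-061 library 4 had the highest Ighv sum of its group, 4.71 FPKM against 0.870 FPKM or less in the others. Vehicle library 4 had the fewest variable genes above 0, 37 against 41 in each of the others, and the highest leading share among Igkv genes, 35.0% against 18.2% or less.

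Of the genes above 0 in 1 DT-061 library only, Ighv1-39 at 0.581 FPKM, Ighv1-55 at 0.387 FPKM, Ighv1-81 at 0.194 FPKM, Ighv3-6 at 0.993 FPKM, Ighv5-17 at 0.194 FPKM and Ighv9-3 at 0.581 FPKM were found in DT-061 library 4. In DT-061 library 1 these were Ighv1-72 at 0.198 FPKM, Igkv10-94 at 0.401 FPKM and Igkv9-124 at 0.243 FPKM. In DT-061 library 2 they were Igkv12-98 at 0.186 FPKM, Igkv17-127 at 0.188 FPKM and Igkv5-43 at 0.553 FPKM. In DT-061 library 3 they were Igkv12-41, Igkv12-46 and Igkv6-25, each at 0.199 FPKM, and Igkv14-126 at 0.195 FPKM. The heavy-chain genes among these 16 lay mostly in DT-061 library 4, the library with the most variable gene fragments. Igkv17-121 was at 0 in DT-061 library 3 and at 0.183 FPKM or more in the other DT-061 libraries.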

How the results depend on the processing

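No variable gene changed direction in any of the 16 alternatives. All 41 were called lower by limma with the pseudocount of 0.1, the minimum mean FPKM of 1, limma without trend and robust, the median rescaling and with DT-061 library 3 and vehicle library 4 both left out, 40 with voom on the recovered fragments (Ighv1-82 lost its call, adjusted p = 0.066), 32 with quantile normalization (largest adjusted p = 0.10) and 34 to 41 with 1 library left out. Over the whole table, 1268 genes were called, against 733 with the median rescaling, 603 with quantile normalization, 834 with the replicate block and 942 to 1230 with 1 library left out. Of the B cell, plasma cell, constant and joining chain genes 11 fell, against 6 with the median rescaling, 5 with quantile normalization and 7 to 12 with 1 library left out.

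With the replicate number as a block, 40 of the 41 variable genes were called lower and Iglv3 was not (adjusted p = 0.055). The numbers share no stated source. Libraries of the same number did not deviate together (correlations of 0.18, -0.11, -0.05 and -0.47), so the block is given here only, and DT-061 library 1 alone correlated best with its own number.

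The ratios of the summed FPKM, vehicle over DT-061, moved by less than the spread between libraries in every alternative run. With 1 library left out they were 84.8 to 200 for all genes, 93.1 to 374 for heavy-chain, 78.2 to 142 for kappa and 33.5 to 114 for lambda. The leading share averaged 18.2% for Ighv and 20.8% for Igkv over the vehicle libraries and was 15.3% to 19.95% and 16.1% to 22.8% with 1 left out. The minimum mean FPKM of 1 removed no variable gene. The 6 to 46 variable gene fragments of a DT-061 library cannot show which variable genes it used, although its depth is no lower than that of vehicle library 4.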

Other observations

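Among genes that draw B cells and plasma cells into tissue or sustain them there, 5 of the 21 listed were in the table and all 5 fell, 2 of them (Ccl21a and Cxcr4) without overlap between the groups, where 65.0% of the table fell and 48.2% was lower without overlap. The chemokine gene Ccl21a had 15.0, 17.4, 11.0 and 17.3 FPKM with DT-061 and 90.3, 44.5, 53.1 and 46.7 FPKM with vehicle, and unlike the variable genes it was no lower in vehicle library 4 than in vehicle library 2. Cxcl12, a chemokine that holds plasma cells in their niches, had 42.1, 37.1, 23.6 and 50.4 FPKM with DT-061 and 99.5, 64.5, 85.7 and 45.9 FPKM with vehicle, so that vehicle library 4 lay within the DT-061 values. Its receptor gene Cxcr4 was 4.79-fold lower with DT-061, and the lymph node homing receptor gene Ccr7 was 11.6-fold lower, or 6.86-fold without vehicle library 1. Il6, a growth factor of plasma cells, had 3.47, 3.23, 0.369 and 0.977 FPKM with vehicle and 0.128, 0.294, 0.0634 and 0.563 FPKM with DT-061, which overlap. It was 7.68-fold lower, or 12.4-fold without DT-061 library 4. Of 8 germinal centre genes, Gcsam was in the table and fell, at 0.410 FPKM or less in every library.

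The balance of antibody classes differed between libraries. The Igha level was 1.91, 19.1, 5.57 and 1.92 times that of Ighm in vehicle libraries 1 to 4 and 0.325, 0.270, 0.761 and 0.864 times in DT-061 libraries 1 to 4. Igha was thus the higher of both genes in each vehicle library and the lower in each DT-061 library, as FPKM, which is per length. The difference in this ratio was not tested.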
